A study of Apis mellifera with 96 samples.

Results

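The 80 genes described here are honey bee genes that carry only an NCBI LOC number, a placeholder for a locus without an assigned symbol, and whose transcripts were more abundant in foragers than in nurses at both ages sampled. They were chosen on the measured values. From 9935 genes in the count table, 9537 had a LOC number, and 5601 of these reached a mean of 10 CPM (counts in each library scaled to a common total over its genes). For each gene the role difference is the mean log2(CPM + 1) of foragers minus that of nurses, averaged over both days. The day difference is day 26 minus day 7, averaged over both roles. A gene passed if its role difference was at least 0.4, its day difference was smaller in size than 1/2 of that, and its role difference changed between days by less than its own size. That left 568 genes, and the 80 with the highest role differences are the members. The mirror rule for genes higher in nurses found 65. With TMM factors, which align the bulk of genes between libraries, 103 genes passed the limits and 155 passed the mirror rule. Role, day and their combination chose the members, so their values in these comparisons are given as description with no test.

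Foragers, aged 7 or 26 days, and nurses of the same ages were whole, wild-type, untreated worker bees (Apis mellifera) from origin colonies 107, 109, 115, 122, 127 and 137. They had been placed as 1-day-old adults into 3 shared nuclear hives with queens and honey frames, and nurses and foragers were caught on each of these days. The libraries were 22 of foragers and 22 of nurses at day 7, and 24 of foragers and 24 of nurses at day 26, with 2 to 4 libraries for every combination of colony, role and day. Age and date of capture cannot be told apart, and the labels leave unsaid how many bees went into a library. The sample titles name no hive, and the main tests below have no term for it. RNA was read by TagSeq, in which 1 short read is taken close to the 3′ end of a transcript, so counts are not scaled by gene length.

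A worker bee usually feeds brood as a nurse before she forages for nectar and pollen. In nurses the hypopharyngeal glands of the head secrete the royal jelly proteins, and the fat body makes the yolk precursor vitellogenin (Vg) and storage hexamerins. In foragers those glands turn to enzymes that process nectar, and juvenile hormone is high while vitellogenin is low. A bee can start to forage early or go on nursing late, so that role and age can be told apart. None of the 80 members has a product description in the table used here, so no role is assigned to any of them. All 80 are annotated as protein coding in RefSeq's table for the assembly Amel_HAv3.1.

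Libraries held 197805 to 2300891 counts on genes, with a median of 1200033 in foragers and 1345353 in nurses. Reads that did not align made up 69.9% ± 4.12 of the total in foragers, against 65.5% ± 3.01 of it in nurses (SD over 46 libraries of either role). The 6 royal jelly genes Mrjp1 to Mrjp5 and Mrjp7 took 1.35% ± 1.97 of counts in foragers, against 9.73% ± 5.50 of those in nurses (SD over the same libraries). CPM values divide by a total that includes them. The median role difference of all 5601 LOC genes was 0.22 with CPM, and 88.7% were above 0. With TMM factors that median was -0.00068 with 49.8% above 0. The members had a median role difference of 0.86 with CPM and 0.63 with TMM factors. All 80 stayed at or above 0.4 with TMM factors, the lowest at 0.49, and 69 of them passed every limit again. Because the bees were whole, more cells of a type and more RNA per cell cannot be told apart.

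Some libraries stand apart from others of the same label in mitochondrial or royal jelly transcripts. In 7 libraries the levels of the 13 mitochondrial genes lay at least 2 times nearer to another colony's than to their own. These were colony 109 foragers at day 7 replicate 3, colony 115 nurses at day 7 replicate 2#2, colony 115 foragers at day 26 replicates 1 and 2#2, colony 127 foragers at day 7 replicate 1 and at day 26 replicate 2, and colony 137 foragers at day 26 replicate 1. Those of colony 115 lay 7.81 to 8.13 from their own colony, against 0.990 to 1.27 from the nearest other. The rest lay 1.15 to 2.40 from their own, against 0.509 to 1.05. Every library of colony 137 lay nearer to another colony than to its own, so this measure does not separate all colonies. In 5 other libraries the royal jelly share lay beyond the median of the opposite role. The library labelled colony 122 forager, day 26, replicate 2 had 11.0% on royal jelly genes, against a forager median of 0.634%. The 4 labelled as nurses were colony 109 at day 7 replicate 3 at 0.537%, colony 115 at day 7 replicate 3 at 0.236%, colony 115 at day 26 replicate 2 at 0.239% and colony 122 at day 26 replicate 2 at 0.242%, against a nurse median of 10.5%. Without the first set 74 of the 80 members were chosen again, and without the second set 70.

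Role differences of the members ran from 0.71 to 2.84 on the log2 scale, and 19 were over 1. Mean levels had a median of 37.8 CPM, against 39.1 CPM over the 5601 LOC genes. At 1000 CPM or more there were 5 members, at 100 CPM or more 23, and under 20 CPM 24. At the lower end of the rule, LOC409063, LOC409452 and LOC726268 were just inside at 0.72, 0.72 and 0.71, and LOC724961, LOC409981 and LOC411577 just outside at 0.71 each. The day difference of the members had a median of 0.19 and was above 0 for 65 of 80. The role difference was smaller at day 26 than at day 7 for 59 of 80, and its change had a median of -0.16. In edgeR's fit over all genes, 78 of 80 members passed as higher in foragers (15.2% of all genes did), 0 as lower (14.8% of all genes), and all 80 fold changes were above 0 (51.9% of all genes); since the choice of members used this contrast, nothing is read from these counts.

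LOC726737 had the highest role difference, 2.84. At day 7 its lowest, median and highest values were 17.7, 87.5 and 215 CPM in foragers, against 1.29, 4.68 and 39.0 CPM in nurses. At day 26 they were 11.9, 106 and 310.4 CPM in foragers, against 3.01, 10.9 and 229 CPM in nurses. All 22 young foragers lay above the nurse median and no young nurse reached the forager median, while 6 of 24 nurses at day 26 did. Its role difference was 1.91 at day 26, against 3.76 at day 7. The gene models of LOC726737 and LOC726703 overlap in the reference, and whether counting used strand is not stated, so the split of reads between them is uncertain. LOC726703 had a mean of 15.1 CPM and a role difference of 0.37.

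LOC411894 was second, at a role difference of 2.25. At day 7 it ran over 9.59, 59.6 and 263 CPM (lowest, median and highest) in foragers, against 1.94, 6.58 and 126 CPM in nurses. At day 26 foragers had 4.91, 45.4 and 194 CPM, against 2.12, 6.68 and 212 CPM in nurses. The medians are far apart on both days, yet single nurse libraries reach well into the forager range: 1 of 22 lay above the forager median at day 7 and 4 of 24 at day 26. The SD of this gene within groups of colony, role and day was 1.32 on the log2 scale.

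LOC551496 was the second most counted member, with a mean of 3297 CPM and a role difference of 1.48. It had 369, 3691 and 8008 CPM in foragers at day 7, against 601, 1555 and 4497 CPM in nurses. At day 26 the values were 1252, 5541 and 9357 CPM in foragers, against 202, 1427 and 8659 CPM in nurses. Here the gap was wider at day 26, with a role difference of 1.83, against 1.14 at day 7. LOC726611, which lies 3 genes away in the reference, had a similar role difference, 1.48, at a far lower mean of 38.6 CPM. Its medians at day 26 were 64.3 CPM in foragers and 20.0 CPM in nurses. The pair LOC552193 and LOC409640 also lies 3 genes apart, with role differences of 0.99 and 0.90. Within groups the first pair had a Pearson r of 0.41 and the second of 0.04.

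The other leading members shared the pattern with their own ranges. LOC100578329 had medians of 164 CPM in foragers and 37.0 CPM in nurses at day 7, and 223 CPM in foragers against 65.2 CPM in nurses at day 26. LOC411058 had 79.2 CPM in foragers and 20.3 CPM in nurses at day 7, and 126 CPM in foragers against 34.7 CPM in nurses at day 26, where no nurse library reached the forager median. LOC411599 behaved likewise at day 26, with 23.0 CPM in foragers and 8.44 CPM in nurses. In LOC725165 and LOC409801 the nurses came closer to the foragers at day 26. LOC725165 had 187 CPM in foragers and 49.1 CPM in nurses at day 7, and 165 CPM in foragers against 86.3 CPM in nurses at day 26. LOC409801 had 326 CPM in foragers and 86.4 CPM in nurses at day 7, with no nurse library at the forager median. At day 26 it had 223 CPM in foragers and 92.8 CPM in nurses, and 8 of 24 nurses lay above the forager median. LOC413907 and LOC552209, at means of 11.7 and 18.6 CPM, had role differences of 1.37 and 1.29. LOC413907 had no count in 2 nurse libraries of day 7, which allows up to 2.38 and 1.67 CPM there, by counting error only.

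**Figure D1:**
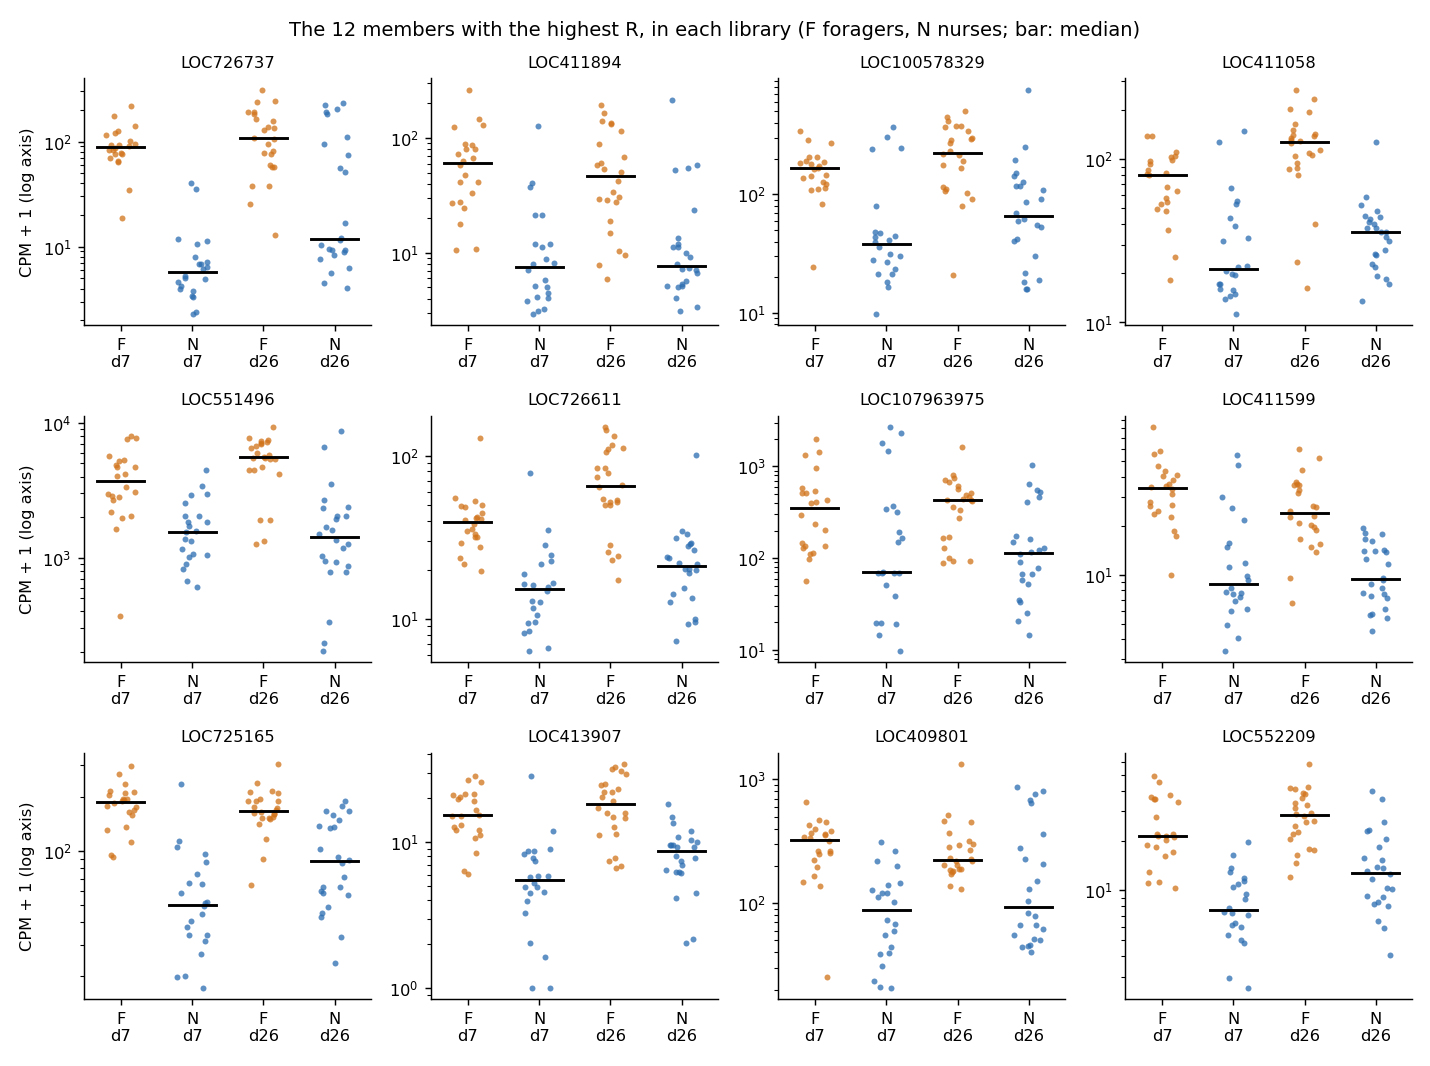
CPM + 1 on a log axis in each library for the 12 members with the highest role difference (R), foragers (F) and nurses (N) at day 7 (d7) and day 26 (d26); each point is 1 library and the bar is the median. The forager median lies above the nurse median in every panel on both days, and single nurse libraries reach into the forager range, as the 229 CPM of LOC726737 at day 26 shows.

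Of the 8 members with the highest mean CPM, the 6 other than LOC551496 and LOC107963975 had role differences of 0.84 to 1.18. LOC100577527, with a mean of 8088 CPM, had medians of 11129 CPM in foragers and 6676 CPM in nurses at day 7, and 9348 CPM in foragers against 4877 CPM in nurses at day 26. LOC113219195, with a mean of 2551 CPM, had 2766 CPM in foragers and 1151 CPM in nurses at day 7, and 4202 CPM in foragers against 1995 CPM in nurses at day 26. No nurse library of day 26 reached its forager median. It lies next to Pla2, the gene of the venom enzyme phospholipase A2, whose role difference was -1.82, so the 2 neighbours were higher in opposite roles. LOC409805 had 1740.1 CPM in foragers and 769.9 CPM in nurses at day 7, and 1702 CPM in foragers against 879 CPM in nurses at day 26. LOC552459 had 1194 CPM in foragers and 712 CPM in nurses at day 7, and 1593 CPM in foragers against 718 CPM in nurses at day 26. LOC100576592 and LOC724421, at means of 521 and 407 CPM, had role differences of 1.14 and 0.87.

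Across the 80 members, no member had groups that were fully apart on either day, so at least 1 nurse library reached the lowest forager value; the same was true of all 5601 LOC genes (0% fully apart). Genes directly next to a member had a median role difference of 0.24 (77 genes at 10 CPM or more), close to the 0.22 of LOC genes at large. The reference shows 34 members overlapping another gene and 25 overlapping a gene of the count table, and for these the split of reads is uncertain. Among the leading members this holds for LOC725165, which overlaps LOC725205, a gene with a role difference of 1.97 that missed the level limit at 7.20 CPM. It holds also for LOC409801, which overlaps LOC413168, and for LOC552209, which overlaps the troponin C gene TpnCIIb.

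The role difference was then taken in each of the 12 combinations of colony and day. Of the 80 members, 51 were higher in foragers in all 12, and the fewest for any member was 10. Among all 5601 LOC genes, 11.9% were higher in all 12. With TMM factors the numbers were 41 of 80 members and 2.71% of LOC genes. The choice of members favours this sign, so the counts are a description. The median over the members was highest in colony 107 at day 26, at 1.36, and at day 7, at 1.32. It was lowest in colony 122 at day 26, at 0.38, where 60 of 80 members were above 0. LOC726737 had -0.19 there and LOC100578329 had -0.05, against 3.82 and 3.37 in colony 107 on the same day. LOC726737 was also low in colony 109 at day 26, at 0.52, against 4.48 in that colony at day 7. Colony 122 at day 26 holds 2 of the 5 libraries whose royal jelly share goes against the label, 1 of each role. Without them the median in that combination was 0.71 and 71 of 80 members were above 0, with 1.02 for LOC726737 and 1.01 for LOC100578329 (3 forager and 3 nurse libraries). The royal jelly share ran against the members within groups, so leaving out libraries by it favours a rise. These values are a description. Leaving out the rest of the 5 gave 1.16 against 1.07 in colony 109 at day 7. In colony 115 it gave 1.01 against 0.76 at day 7, and 0.80 against 0.57 at day 26.

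**Figure D2:**
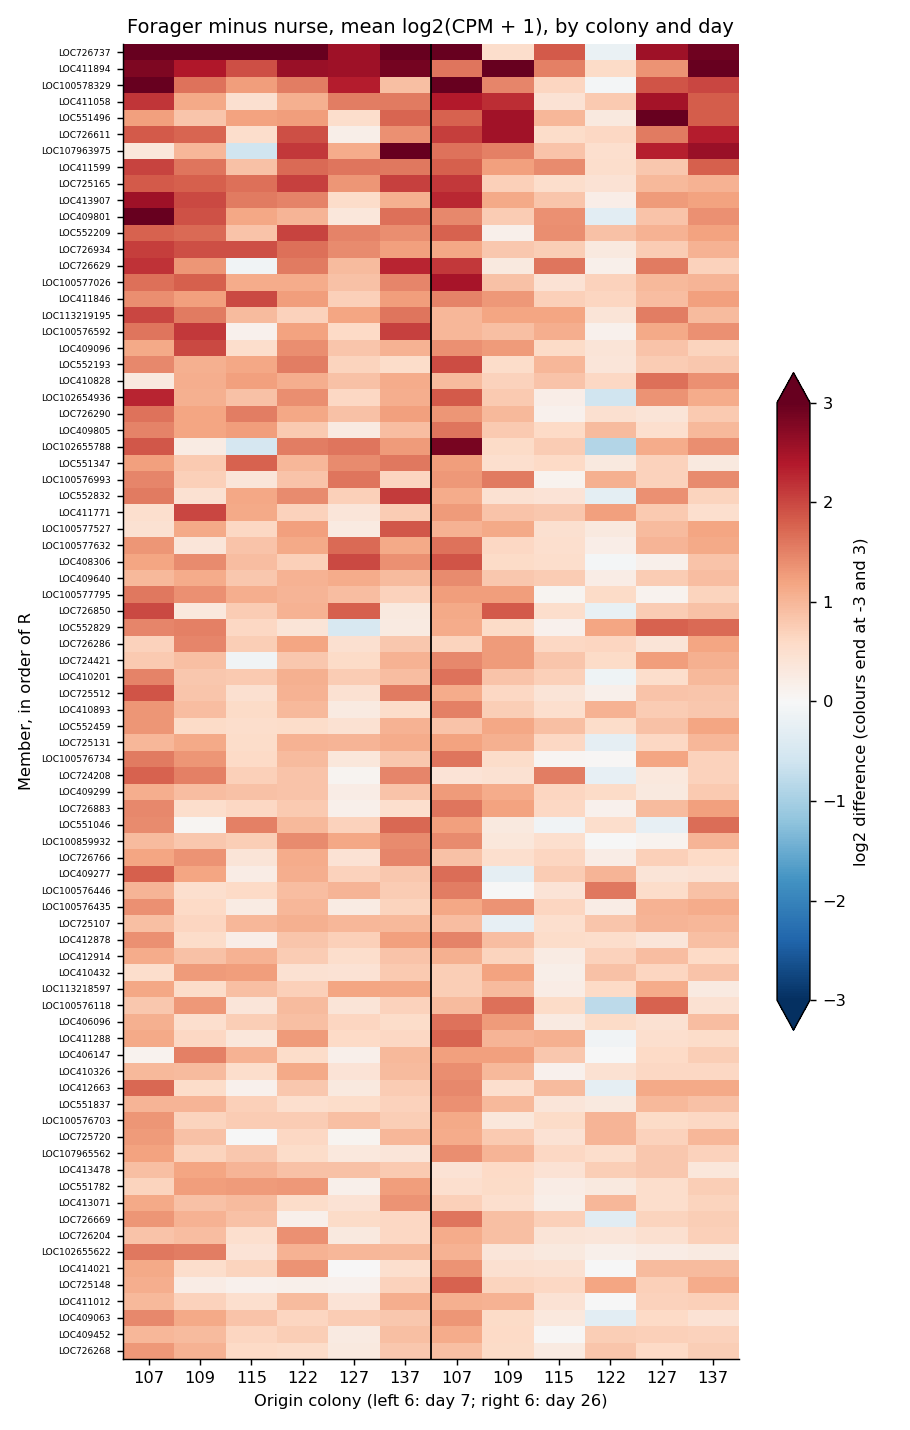
Forager minus nurse in mean log2(CPM + 1) for each member (rows, in order of role difference R) and each origin colony at day 7 (left 6 columns) and day 26 (right 6 columns); red is higher in foragers and blue is lower. Red fills most of the map, with 51 of 80 rows above 0 in all 12 columns, and blue cells gather in colony 122 at day 26.

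In the tests that the choice of members did not use, the first asked whether levels differed between the 6 origin colonies once role and day were averaged. By edgeR's quasi-likelihood test with Benjamini-Hochberg adjustment over 6753 genes, 19 of 80 members (23.8%) differed at an adjusted p under 0.05, against 17.8% of all genes. At an unadjusted p under 0.05 there were 34 members (42.5%) against 32.1% of all genes. The share of members is thus near that of all genes. Over the 19, the highest colony exceeded the lowest by 0.37 to 1.52 on the log2 scale, with a median of 0.68, and over the other 61 the median was 0.47. The count was 20 without the 7 libraries of another mitochondrial profile and 18 without the 5 of opposite royal jelly share. With libraries marked #2 summed with the library of the same replicate number, it was 7 (8.75%), against 9.5% of all genes. It was 9 (11.2%) without colony 107, against 8.94% of all genes, and 10 (12.5%) without colony 137, against 9.92% of all genes, so the share over all genes was lower there too.

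LOC107965562 had the smallest adjusted p (0.0001 by edgeR). In TMM-scaled CPM its lowest, median and highest values were 97.4, 163 and 234 in colony 115, against 47.7, 97.3 and 216 in colony 107, and the 2 colonies differed by 0.67. Colony 122 was low as well, with a median of 116, and colonies 109 and 127 had 138 and 145. Its gene model overlaps that of LOC408532, which had 111 CPM, so the split of reads between them is uncertain. LOC725148 was highest in colony 137, at 93.8, 199.7 and 254 CPM, and lowest in colony 107, at 60.9, 86.0 and 246 CPM, a difference of 0.68 (edgeR adjusted p = 0.0015). These 2 members passed in all 16 alternative settings tried.

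LOC726629 had the widest gap, 1.52, between colony 137 with a median of 15.1 CPM and colony 107 with 4.40 CPM (edgeR adjusted p = 0.00483). LOC726629 missed the threshold in 2 of 16 settings. Without colony 107 its edgeR adjusted p was 0.657, the highest over the settings, where the lowest was 0.000275. Without replicate 2 it was 0.0841. LOC409805 was highest in colony 127, with a median of 1640.2 CPM, and lowest in colony 109, with 1151 CPM, a difference of 0.63 (edgeR adjusted p = 0.000171). LOC100576734 was highest in colony 115, with a median of 14.5 CPM, and lowest in colony 122, with 6.46 CPM (edgeR adjusted p = 0.000491). Each of these 2 missed the threshold in 1 of 16 settings. LOC726850, LOC410201 and LOC413478, with edgeR adjusted p-values of 0.0171, 0.0173 and 0.021, missed it in 6, 5 and 7 settings. LOC726850 was highest in colony 109, where forager replicate 3#2 of day 26 had 886 CPM and the next highest library of that colony had 206 CPM. Among the leading members by role, LOC411894 also differed between colonies, by 1.25 between colonies 115 and 107 (edgeR adjusted p = 0.0216). It missed the threshold in 7 of 16 settings, with adjusted p-values of 0.0061 to 0.525 over them, the highest without colony 115. Without the 5 libraries of opposite royal jelly share its adjusted p was 0.408.

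**Figure D3:**
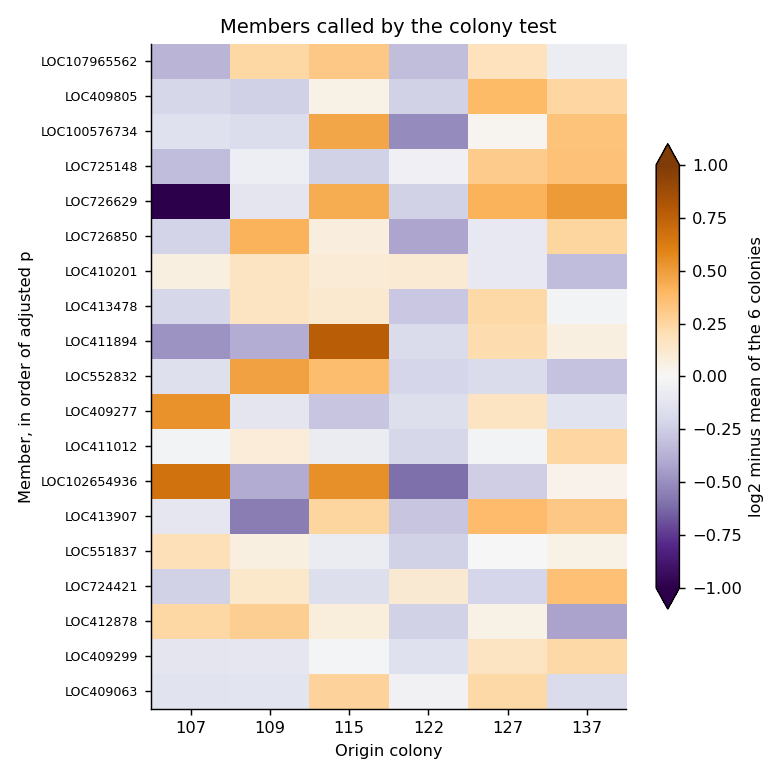
Colony means of the 19 members that differed between origin colonies, as log2 of TMM-scaled CPM + 1 minus the mean of the 6 colonies, averaged over role and day; orange is higher and purple lower, and rows run from the smallest adjusted p. No colony is extreme for all rows: colony 122 is lowest for 7 members, colony 107 for 5 and colony 137 for 4, while colony 137 is highest for 5.

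Whether the role difference of a member depended on its origin colony was tested next. No member passed by edgeR, against 0 of all genes, and 11 members (13.8%) had an unadjusted p under 0.05 against 7.58% of all genes. Whether the day difference depended on colony gave no member either, against 0.0444% of all genes, with 18 members (22.5%) at an unadjusted p under 0.05 against 10.4%. DESeq2's likelihood ratio test also called 0 members in both tests. For no member, then, did the range over colonies of its role difference, averaged over days, pass the adjusted threshold. Whether that range changed between days was not tested.

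The spread between libraries of the same colony, role and day was not a limit in choosing the members. Taking the highest role differences can still favour variable genes, so the spread is given as description. The median SD of log2 values around the group means was 0.54 over the members and 0.34 over the 5601 LOC genes. Taken by role, the median was 0.47 in forager groups and 0.61 in nurse groups for the members, against 0.34 and 0.33 for LOC genes. For 67 of 80 members the SD was higher in nurses, with no share over LOC genes to set beside it. The rule makes members lower in nurses, where fewer counts can widen log2 values. The 5 libraries of opposite royal jelly share stay in, and the part of either was not tested. LOC107963975 varied most, with an SD of 1.63. At day 7 it had 55.4, 347 and 1987 CPM in foragers, against 8.73, 69.4 and 2696 CPM in nurses, and at day 26 88.3, 431 and 1603 CPM in foragers against 13.5, 113 and 1028 CPM in nurses. Its highest value thus came from a nurse library, colony 115 at day 7 replicate 3, one of those with a low royal jelly share. LOC102655788 had an SD of 1.26, with 6.45, 23.1 and 202 CPM in foragers at day 26, against 0.780, 8.90 and 217 CPM in nurses. LOC102654936 had an SD of 1.23 at a mean of 12.1 CPM.

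Seen by library, the sum over the 80 members was 28554 ± 5639 CPM in foragers, against 15469 ± 7180 CPM in nurses (SD, n = 46 each). Without the 4 largest members, LOC100577527, LOC551496, LOC113219195 and LOC409805, it was 8643 ± 1475 CPM in foragers, against 4901 ± 2042 CPM in nurses. The lowest, median and highest sums over all 80 were 15866, 28526 and 40757 CPM in foragers, against 7157, 14911 and 39625 CPM in nurses. The forager library with the lowest sum was the one of colony 122 with 11.0% of counts on royal jelly genes, and only 23 of its 80 members lay nearer to the forager median of the day than to the nurse median. The nurse library with the highest sum was that of colony 115 at day 7 replicate 3, where 71 of 80 members lay nearer to the forager median. In the colony 115 nurse library of day 26 replicate 2 this held for 66 members, and in the colony 122 nurse library of day 26 replicate 2 for 49. The nurse library of colony 109 at day 7 replicate 3 had only 24, although its royal jelly share was also low.

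**Figure D4:**
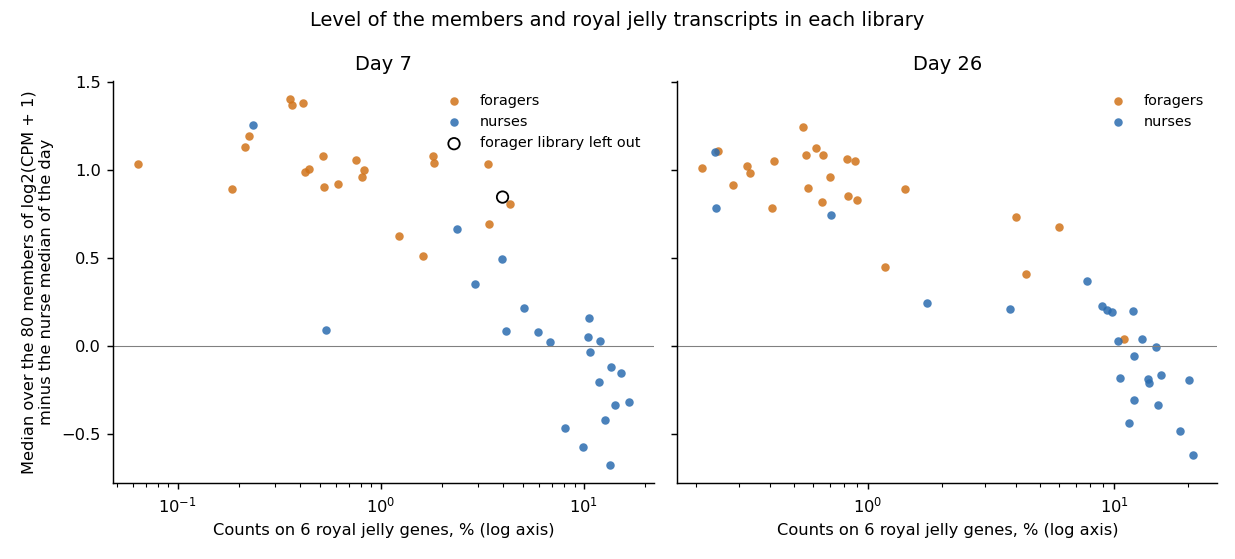
Median over the 80 members of log2(CPM + 1) minus the nurse median of the day (vertical axis) against the share of counts on 6 royal jelly genes in percent (horizontal log axis), 1 point per library, at day 7 (left) and day 26 (right); the open circle is the forager library left out for its depth. Nurse libraries with a share under 1% lie at up to 1.26 on the vertical axis, and the forager library with 11.0% lies at 0.04.

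How the members vary together was examined after removing the mean of each group of colony, role and day as labelled. The libraries that stand apart stay in. Over the 3160 pairs of members, the median Pearson r of TMM-scaled log2 values across 92 libraries was 0.16, and 83.3% of pairs were above 0. Over all pairs of LOC genes the median was 5.08e-05 with 50.0% above 0. An r of 0.5 or more was found for 96 pairs of members, 3.04%, against 0.302% of LOC pairs. With CPM over gene totals the medians were 0.28 over pairs of members and 0.11 over LOC pairs. These are descriptions: all pairs share the same libraries and their depths. The members were also chosen for 1 direction of role. A library that goes against its role label can thus move many members together. This favours an r above 0 for members over LOC pairs. No value without the 5 libraries of opposite royal jelly share is given for pairs. The closest pair was LOC107963975 with LOC100577527 (r = 0.81), followed by LOC552459 with LOC412663 (0.80), LOC724208 with LOC412663 (0.73) and LOC552459 with LOC724208 (0.73).

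The same deviations were compared with those of 218 genes that have a symbol and a mean of 10 CPM or more. Of 17440 relations, 232 had an r of 0.5 or more in size, 79 positive and 153 negative. They involve 49 of the members and 76 named genes. No share over other LOC genes stands beside the counts of relations, here and below, so they describe the members only. Permuting libraries within groups, 1374 of the 17440 relations (7.88%) had a Benjamini-Hochberg adjusted p under 0.05, and of the 232, chosen by the same r, LOC409096 with Lop1 was the 1 without it (adjusted p = 0.173). All 232 kept their sign without the 2 libraries farthest from the median of the named gene, and 227 had the same sign in foragers alone and nurses alone. Choosing relations of this size on the same libraries favours a kept sign, so these counts are a description. Without the 5 libraries of opposite royal jelly share the count of relations was 150. Most of those 5 were labelled as nurses. The relations named next are not given without them, so which of these stay at 0.5 in size is not shown. For each relation named next, both Pearson's r and Spearman's rho had a permutation p of 1e-05, the smallest that 100000 permutations can give, with adjusted p-values of 0.00156 and 0.00215, unless other values are given. LOC100577026, LOC724208, LOC412663 and LOC725131 are named for the size of these relations, after their values were seen.

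The named genes with the most relations of -0.5 or less were these. The royal jelly genes Mrjp3 and Mrjp4 had 11 members each at an r of -0.5 or less, the storage hexamerin Hex70a 10, Mrjp7 and Vg 9 each, the hexamerin Hex110 8, and Mrjp1, Mrjp2 and Jhe, the esterase that degrades juvenile hormone, 7 each. The odorant binding protein gene Obp17 followed with 6, Fabp and Tpx-4 with 5 each, and A4, Apamin, Argk, Mrjp5, Obp14 and TpnCIIb with 4 each. None of these genes had a member at 0.5 or more. LOC100577026 varied against Mrjp3 between libraries of a group (r = -0.70, rho = -0.61, and r = -0.63 without the 2 farthest libraries). LOC725165 did the same with Mrjp3 (r = -0.69, rho = -0.61, -0.67 without them) and with Vg (r = -0.69, rho = -0.63, -0.66 without them). For LOC725165 and Vg, r was -0.40 in foragers and -0.76 in nurses. The nurse value includes the libraries labelled as nurses that had a low royal jelly share, and their part in it was not tested. LOC552209 varied against Hex110 (r = -0.63, rho = -0.61, -0.63 without them). With the share of counts on royal jelly genes, 12 members had an r of -0.5 or less, and 3.27% of LOC genes reached 0.5 in size. The median over the members was -0.34, against -0.01 over LOC genes. No member reached 0.5 in size with the share of reads not aligned or with depth, against 0.0357% and 1.25% of LOC genes.

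On the positive side the partners were of several kinds. At 0.5 or more, Cryl1, FAR1 and Hbg3 had 6 members each, Kr-h1 and TpnCIIIa 5 each, and Apid1, Tsf1 and nAChRb2 4 each. None of these genes had a member at -0.5 or less. Hbg3 is the alpha-glucosidase with which foragers split nectar sucrose. LOC726737 was the nearest to it, with r = 0.80, rho = 0.73 and 0.75 without the 2 farthest libraries, and with r of 0.71 in foragers and 0.82 in nurses. Kr-h1, a transcription factor that responds to juvenile hormone, had 5 members, led by LOC725165 (r = 0.64, rho = 0.56, 0.64 without them). LOC725165 and LOC726737 were also related to each other, at r = 0.66, a description with no p.

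Another set of members varied with Apid1, which encodes the cuticle protein apidermin 1, and with Tsf1, the iron carrier transferrin. LOC724208 and LOC552459 each had an r of 0.72 with Apid1, with rho of 0.68 and 0.68, and 0.69 and 0.68 without the 2 farthest libraries. LOC412663 had an r of 0.65 with it (rho = 0.60, 0.62 without them). LOC409801 varied with Tsf1 (r = 0.69, rho = 0.59, 0.62 without them). LOC724208 also varied with Pgrp-s2, a peptidoglycan recognition protein of immune defence (r = 0.57 with permutation p = 3e-05 and adjusted p = 0.00274, rho = 0.53 with permutation p = 3e-05 and adjusted p = 0.00349, and r = 0.52 without them). LOC724208 had an r of 0.51 with Hbg3 as well (permutation p = 0.00012, adjusted p = 0.00596; rho = 0.48 with permutation p = 7e-05 and adjusted p = 0.0054; r = 0.47 without them). With the royal jelly share, LOC724208, LOC552459, LOC412663 and LOC409801 had an r of -0.34, -0.39, -0.38 and -0.31, near the median of the members.

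Further relations are named by their size. LOC725131 varied with Syt1, the synaptic vesicle protein synaptotagmin (r = 0.66, rho = 0.54, 0.59 without the 2 farthest libraries). LOC409805 varied with CytC, cytochrome c of the respiratory chain (r = 0.60, rho = 0.59, 0.58 without them). It also varied with Ant, the ADP/ATP carrier of mitochondria (r = 0.55, rho = 0.59, 0.52 without them). LOC411058 and LOC551496 varied with Cryl1, at r of 0.56 and 0.55 (rho = 0.60 each, 0.57 and 0.56 without them). Relations to mitochondrial genes ran in both directions: LOC724421 had an r of -0.58 with ATP5G2, a subunit of the mitochondrial ATP synthase (rho = -0.56, -0.55 without them). The remaining 31 members had no relation of this size with a named gene.

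**Figure D5:**
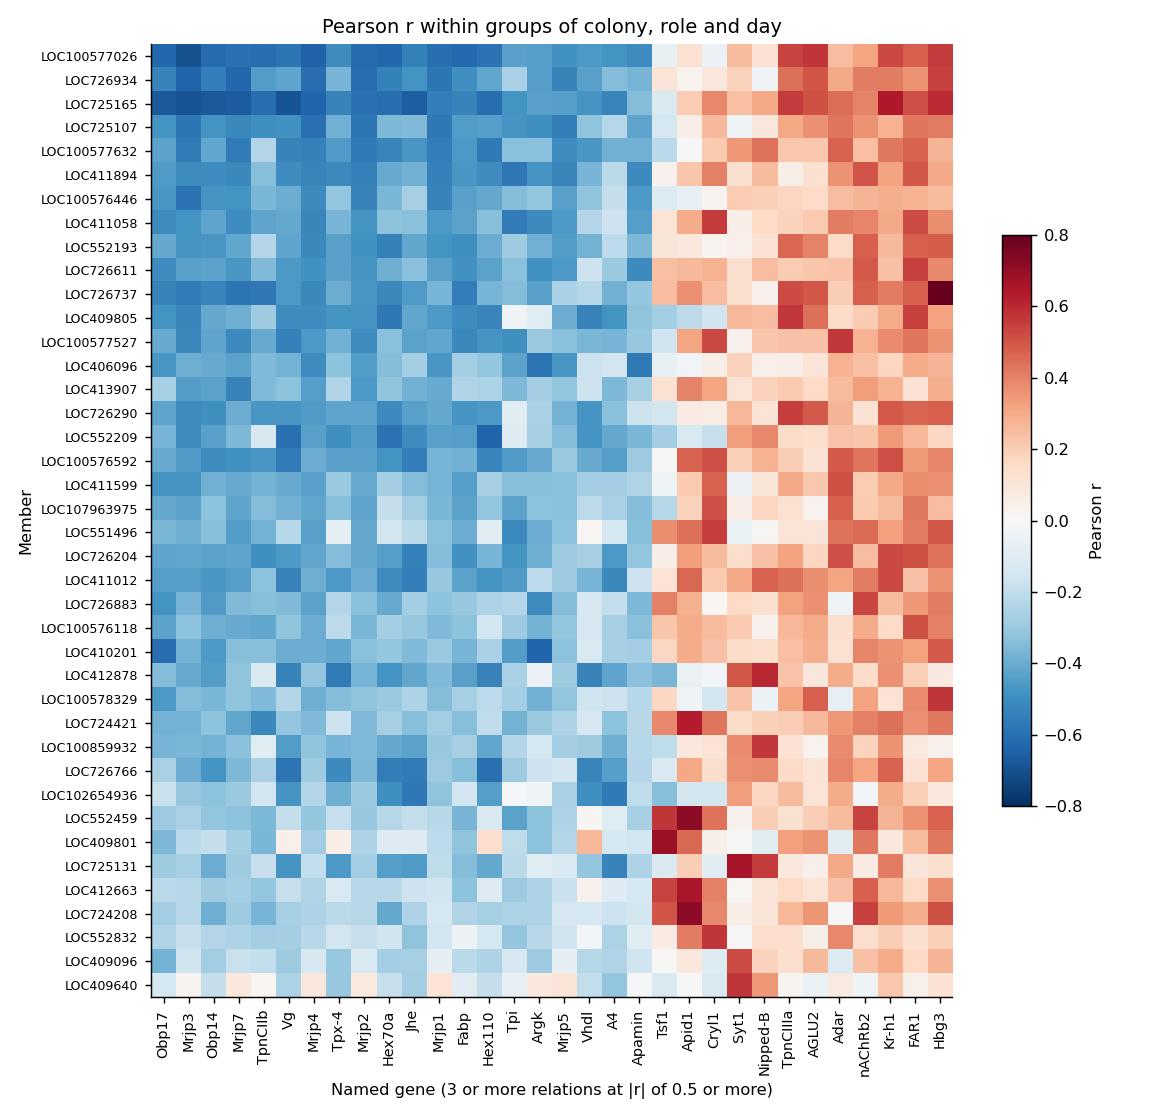
Pearson r within groups of colony, role and day between members (rows) and named genes (columns), for the 32 named genes with at least 3 relations of 0.5 or more in size and the 40 members that have one with them; red is positive and blue negative. Rows at the top are blue over the royal jelly and storage genes, to -0.70 for LOC100577026 with Mrjp3, and rows at the bottom are pale there, with red cells at Apid1, Tsf1 or Syt1.

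Summed levels of marker genes of tissues differed in median between foragers and nurses, while their ranges overlapped in every list. Medians of the nerve, eye and muscle sums were 160, 228 and 2206 CPM in foragers, against 96.9, 152 and 1689 CPM in nurses. For the brood food gland, fat body and venom gland sums they were 6339, 286 and 914 CPM in foragers, against 105418, 2320 and 4903 CPM in nurses. None of the markers found had a mean under 1 CPM. The summed level of nerve markers, of which 7 of 9 were found, ran from 97.6 to 243 CPM in foragers, against 54.4 to 176 CPM in nurses. Eye markers, all 4 opsins, ran from 153 to 445 CPM in foragers, against 24.7 to 346 CPM in nurses. Muscle markers, 4 of 6 found, ran from 1476 to 3043 CPM in foragers, against 1288 to 3210 CPM in nurses. Brood food gland markers, 6 of 6, ran from 638 to 110169.6 CPM in foragers, against 2358 to 208848 CPM in nurses. Fat body markers, 5 of 6, ran from 108 to 5117 CPM in foragers, against 128 to 14569 CPM in nurses. Venom gland markers, 4 of 4, ran from 95.3 to 14111 CPM in foragers, against 133 to 19532 CPM in nurses. Within groups, 2 of 80 members had an r of 0.5 or more with the nerve sum, 1 with the eye sum and 0 with the muscle sum, each sum taken as log2 of TMM-scaled CPM. Taken singly, the muscle marker TpnCIIIa had 5 members at 0.5 or more. The muscle marker TpnT had 1 at 0.5 or more and 1 at -0.5 or less. An r of -0.5 or less was found for 11 members with the fat body sum, 7 with the brood food gland sum and 2 with the venom gland sum. Of LOC genes, 1.50% reached 0.5 in size with the nerve sum, 0.214% with the eye sum, 0.0893% with the muscle sum, 3.71% with the fat body sum, 2.96% with the brood food gland sum and 0.571% with the venom gland sum. The median r over the members was 0.29 with the nerve sum, 0.07 with the eye sum and 0.04 with the muscle sum. It was -0.31 with the fat body sum, -0.29 with the brood food gland sum and -0.21 with the venom gland sum. Over LOC genes these medians lay between -0.0149 and -0.0011. The part of tissue makeup in the role difference was not tested.

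A single forager library, colony 107 at day 7 replicate 1, took no part in choosing the members, because it held only 81736 counts. In it 59 of 80 members lay above the nurse median of day 7, against 49.4% of LOC genes. The median over the members was 0.85 above that nurse median on the log2 scale, against -0.01 over LOC genes. At this depth a gene with no count is limited only to 36.7 CPM, and 14 members had none. Among the 23 members at 100 CPM or more, 20 lay above the nurse median, with no share of LOC genes at that level to set beside it. LOC551496 had 340 counts there, or 4159.7 CPM, against a nurse median of 1555 CPM, and LOC113219195 had 562 counts, or 6876 CPM, against 1151 CPM. With 1 library there is no test.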

How the data were processed

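The study deposited a table of raw counts of reads per gene and library, which the authors did not normalize. The tools named in the submitters' processing notes are HISAT2, SAMtools, FastQC and DESeq2; their versions, the build and the counting program were not given in the sources used here, and coordinates are left out for that reason. Of 96 samples in the labels, 93 have a column; the negative control and 2 libraries of colony 127 nurses at day 7 were not analysed here. The 5 entries for unassigned reads stayed out of library totals; on average 12.8% of reads fell on genes. The library of 81736 counts was left out of all fits, leaving 92. Library totals of the rest set the precision, and limits for a count of 0 take 3 counts. Libraries marked #2 repeat another library's replicate number and were treated as separate samples, and summing them was an alternative. P-values reflect the spread among libraries only, which may be technical.

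The 80 members, gene lists and tests were chosen with earlier results of these data known. Members were selected on log2(CPM + 1). Counts of all genes kept by filterByExpr at a minimum count of 10 (6753) were fitted with edgeR 4.0.16 in R 4.3.3 (TMM, glmQLFit with legacy=FALSE and robust=TRUE), with 1 mean for each of 24 combinations of colony, role and day (68 residual degrees of freedom). Tests over the 6 colonies were adjusted by Benjamini-Hochberg over all genes. DESeq2 1.42.0, its size factors, no low-count filter, a replicate block, and leaving out each replicate number or colony were the alternatives, with 2 sets of libraries that stand apart left out after seeing the data. Relations within groups, chosen after seeing the data, used log2(TMM-scaled CPM + 1) minus group means, with 100000 permutations of libraries within groups in Python 3.11.15. Genes named are the 12 members with the highest role difference, the 8 with the highest mean CPM, up to 8 with the smallest adjusted p over colonies, members within 3 genes of each other, the 5 most variable within groups, and 3 on each side of the limit. No protein or promoter sequence was used.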

Additional observations from a re-analysis of the deposited data

Results flagged for a closer look

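In 21 groups of 4 libraries of the same colony, role and day, the summed CPM of the 80 members was examined for a library far from the others, and 4 groups had one, where chance gives about 1 in 20 groups. The members with the highest mean CPM carry most of this sum. Colony 137 foragers at day 26 replicate 3 had 31153 CPM, against 31999 to 32153 in the other libraries of the group, a small gap in a narrow group. Colony 137 nurses at day 26 replicate 3 had 24581 CPM, against 10653 to 12329 in the others. Colony 107 nurses at day 7 replicate 1 had 8182 CPM, against 16656 to 18066 in the others. Colony 137 nurses at day 7 replicate 1 had 15649 CPM, against 7204 to 7823 in the others. In the forager library that was left out for its depth, 59 of 80 members lay above the nurse median of day 7, against 49.4% of LOC genes.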

How the results depend on the processing

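Of the 80 members, 56 to 78 were chosen again under other pseudocounts, level limits, TMM factors and sets of libraries. The count of members called over colonies, 19, was 18 to 21 with DESeq2, its size factors or no low-count filter. It was 7 (8.75%, against 9.5% of all genes) with libraries marked #2 summed, 9 without colony 107, 10 without colony 137, and 5 to 11 without each replicate number (6.25% to 13.8%, against 4.21% to 11.6% of all genes); the cause was not tested. Without replicate 1 colony 127 had no nurse library at day 7, and the three-way term was dropped. With a replicate block the count was 17. Same-numbered libraries of different groups had a mean r of 0.000516, against -0.000164 for other numbers. This mean is over all groups, so it cannot show whether numbers pair samples within a colony. No member passed the tests of colony by role or colony by day under any alternative. The 232 relations became 528 with CPM over gene totals, 391 without colony 109, 495 with libraries marked #2 summed, 332 within foragers alone, 965 within nurses alone, 150 without the 5 libraries of opposite royal jelly share, and 268 to 610 without each replicate number; the cause was not tested. All 232 kept their sign under these settings, and 227 within foragers alone, which choosing them by size on the same libraries favours. Depth limits members under 20 CPM most.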
